A study of Raphanus sativus with 8 samples.

Results

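NBS-LRR genes encode the intracellular immune receptors of plants, and 677 of the 78395 radish unigenes measured here carry an Arabidopsis description that contains the term NBS-LRR. A unigene is an assembled transcript sequence to which reads were assigned. Of the members, 601 are described as TIR-NBS-LRR, and the other 76 are all described as CC-NBS-LRR. Whole shoots were sequenced from NH-JS1, a late-bolting inbred line, and from NH-JS2, an early-bolting one. All seedlings had been vernalized for 10 days, and the groups NH-JS1_GA and NH-JS2_GA were sprayed with 10 mM GA (gibberellic acid) and collected 6 days later. The labels give the stage as vegetative growth without GA and as bolting with GA. That stage is a label and not an observed state of the sampled shoots. The paper describes sprayed plants of the late-bolting line as not yet bolted on a day later than this collection. Whether sprayed plants of either line had bolted at collection is not given. Comparisons with and without GA below are therefore of the spray and not of a stage. Each of the 4 groups had 2 libraries, and a library was made from the pooled shoots of 3 plants. The paper calls the 2 libraries of a group biological replicates. No source used here gives separate cultures or sowings for them. The p-values therefore measure the spread between these pools, which may be partly technical.

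An NBS-LRR receptor joins a nucleotide-binding NB-ARC domain to leucine-rich repeats, and it triggers defence when it senses a pathogen effector or the damage that an effector does to a host protein. The class is set by the domain at the start of the protein. TIR receptors signal through EDS1 with PAD4 or SAG101, and CC receptors often need NDR1. A few receptors of the RPW8 type, NRG1 and ADR1, act as helpers of other receptors. The genes lie in clusters in many plant genomes, differ strongly between lines of a species, and are kept at low levels in unchallenged tissue.

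Library totals ranged from 23757588 to 34165272 counts. The 52 unigenes of photosynthesis proteins made up 5.24 to 7.92% of the counts of a library, as a check of the labelled shoot tissue. In pooled shoots, fewer cells of a type and less RNA per cell cannot be told apart. Likewise, reads that differ from a unigene at more than the 2 bases allowed in mapping, and a lower transcript level, cannot be told apart here. Levels below are scaled counts, that is counts brought to a common library size with TMM factors, and they were not divided by length, so that comparisons are of the same unigenes between libraries. The lowest deposited count is 1, called the floor. Where 4 values are given for a line, they are the 2 libraries without GA and then the 2 with GA.

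The members had few counts, which limits the precision of each. The median of their mean scaled counts was 30.4, against 89.6 over all unigenes, with quartiles of 9.97 and 110. The median was 28.6 in the TIR class and 70.5 in the CC class. As counts not divided by length, these values describe the depth behind a unigene and not its level beside another gene. Above a count of 3 in all 8 libraries were 490 members, 23 never exceeded 3, and 100 stood at 1 in at least 1 library. Together the members took 0.200 to 0.306% of the counts of a library. After edgeR's removal of unigenes with few counts, 545 members were left for testing, 480 of the TIR class and 65 of the CC class. The other 132 are described only by their levels.

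The members have 77 Arabidopsis matches and 240 best protein hits, which lie in Brassica rapa for 571 members. Identity to the best hit had a median of 78.17% and ranged from 38.16 to 100%. Among the TIR class, 562 members had an annotated TIR domain, 568 an NB-ARC domain and 521 a leucine-rich repeat. Of the 76 in the CC class, 72 had the NB-ARC domain, 21 a leucine-rich repeat and 0 a TIR domain. Leucine-rich repeats were looked for by only some of their domain families, so repeats of other families are not counted. An RPW8 domain was annotated in 9 members, of which 7 match the helper NRG1.1 and 2 match the helper ADR1. A WRKY domain, which is the DNA-binding part of some receptors that carry their own decoy, was annotated in 5 members, 4 of them matched to AT5G45050 and 1 to RRS1. Members are not independent of each other. In 49 sets, which together hold 129 members, neighbouring unigenes had counts within 25% of each other in every library, and reads of such copies may have been shared between them.

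TBIU028595, a CC member matched to AT1G58390, had the most counts. Its scaled counts were 12972 and 12099 in NH-JS1 and 13490 and 12005 with GA, against 12913 and 11048 in NH-JS2 and 12514 and 14171 with GA. The lines overlapped, with log2 differences of -0.07 without GA and 0.07 with GA. TBIU017405, a TIR member matched to AT3G51560, came next, with 1532 and 1530, 1707 and 1619, 1277 and 1768, and 1552 and 1499 in the same order. Its lines overlapped as well. The near-identical TBIU046760 to TBIU046763, matched to AT5G41550 and AT5G41750, ran from 731 to 1103 over all libraries, TBIU064380, matched to AT4G36140, ran from 1130 to 1477, and TBIU052516, matched to CW9, ran from 715 to 1089. None of these 8, which have the highest mean scaled counts over all 8 libraries, was called in a comparison. TBIU046760 to TBIU046763 had an annotated TIR domain but no annotated NB-ARC domain or leucine-rich repeat. A mean over both lines places members that are high in only 1 line, such as TBIU062717 below, further down.

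The summed level was lower in NH-JS2 than in NH-JS1. Over all 677 members it was 81054.5 ± 467 scaled counts in NH-JS1 (SD, n = 2) and 84929.5 ± 967 with GA, and it was 65906 ± 379 in NH-JS2 and 72999.7 ± 1144 with GA. All 4 libraries of NH-JS2 were below all 4 of NH-JS1, with a ratio of 0.813 without GA and 0.860 with GA. The TIR class had ratios of 0.796 and 0.829 without overlap. The CC class had ratios of 0.856 and 0.937 and overlapped, but without TBIU028595, left out after its values were seen, the ratios were 0.740 and 0.810 and the lines did not overlap.

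The first question was which receptors differ between the lines. A member was called when edgeR's quasi-likelihood test gave an adjusted p of at most 0.01, with Benjamini-Hochberg adjustment over all 65934 unigenes tested, and the log2 difference was 0.6 or more in size. Differences are NH-JS2 minus NH-JS1. Without GA, 42 members were higher and 105 lower in NH-JS2, which is 27.0% of the 545 tested, where the same rule called 18.4% of all unigenes (9.11% higher and 9.26% lower). With GA, 45 were higher and 102 lower, again 27.0%, against 17.6% of all unigenes (8.76% higher and 8.83% lower). Of the members tested, 7.71% and 8.26% were higher and 19.3% and 18.7% were lower. The median log2 difference of the members was -0.23 without GA and -0.15 with GA, where over all unigenes it was 0.00 and -0.01.

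The 2 line comparisons share no library, but they come from the same fit with a shared estimate of spread. In both, 128 members were called in the same direction, 36 higher and 92 lower. That is 23.5% of the members, where 14.7% of all unigenes were (7.25% higher and 7.49% lower). Called in opposite directions were 0 members. Among the 36 that were higher, 32 are of the TIR class and 4 of the CC class, and among the 92 that were lower these numbers were 82 and 10. At least 2-fold in both comparisons were 118 of the 128. The medians of the fitted log2 differences were 4.05 and 3.73 for the members that were higher and -2.86 and -3.25 for those that were lower. With each member that stood at the floor in a whole group set to a bound of 3 counts per library, the medians were 3.26 and 3.35, and -2.80 and -3.02. The 4 libraries of one line did not overlap with those of the other for 88 members that were higher in NH-JS2 and 181 that were lower, which is 16.1% and 33.2% of those tested, against 19.5% and 19.6% of all unigenes.

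**Figure D1:**
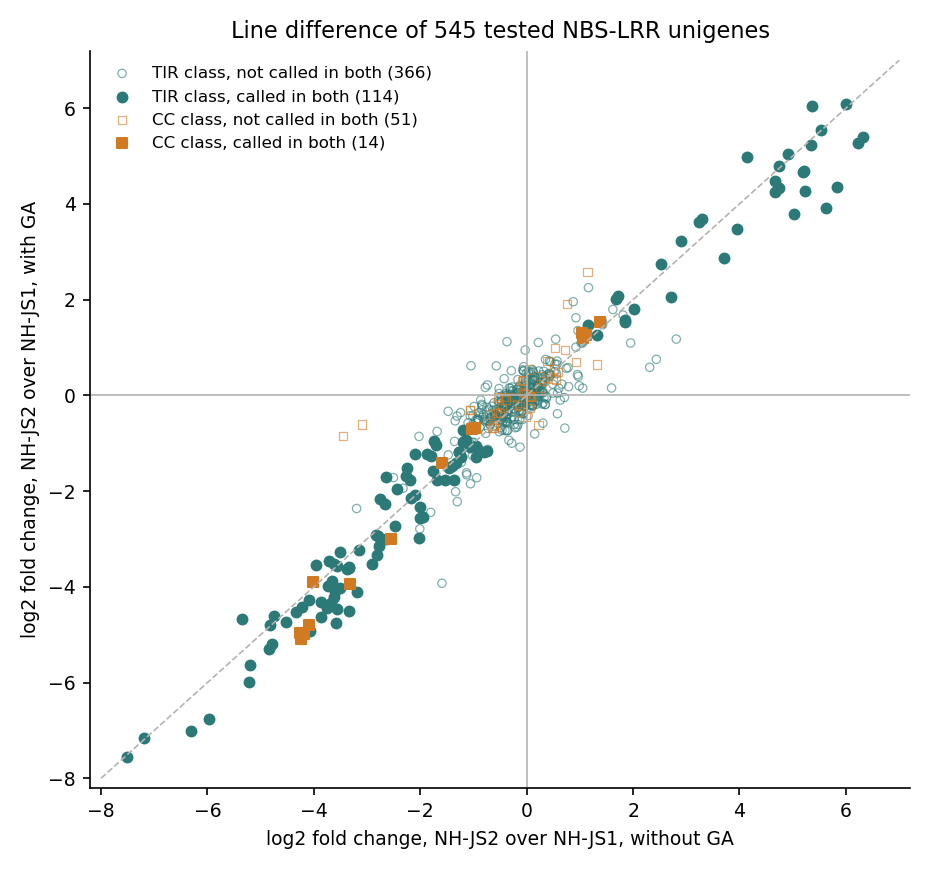
Log2 difference between the lines (NH-JS2 minus NH-JS1, edgeR) without GA on the horizontal axis and with GA on the vertical axis, 1 point per tested member, with the TIR and CC classes and the members called in both comparisons marked. Points called in both lie in only 2 corners, 36 in the upper right and 92 in the lower left.

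The share of members called is given here by count level, with no test. Among members with a mean scaled count of 100 to 300, 35.3% were called without GA, against 19.7% of all unigenes of that level, and from 30 to 100 the shares were 28.1% and 21.2%. From 10 to 30 they were 22.2% and 20.7%, and from 300 to 1000 they were 18.6% and 14.2%. Below 10 the members' share of 23.7% was under that of all unigenes, 25.5%. Of the 3 members at 1000 or more, 0 were called.

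The strongest differences were members of the TIR class present in NH-JS1 and nearly without counts in NH-JS2. The first of them, TBIU055395, had an annotated TIR domain but no annotated NB-ARC domain or leucine-rich repeat. TBIU055395, matched to AT5G41750, had scaled counts of 516 and 401 in NH-JS1 and 459 and 691 with GA, against 2.08 and 2.77 in NH-JS2 and 4.13 and 1.85 with GA. All libraries of NH-JS1 were high and all of NH-JS2 had 4 counts or fewer, with a ratio of pooled scaled counts of 192 and a 95% counting interval of 104 to 401. The edgeR log2 differences were -7.52 ± 0.41 (SE) without GA and -7.56 ± 0.38 with GA, with adjusted p-values of 2.12e-06 and 1.15e-06. TBIU013830 matches DSC1, a TIR receptor known in Arabidopsis from mutants that suppress the immune phenotype of plants without the transcription factor CAMTA3. Its values were 513 and 456 in NH-JS1 and 517 and 401 with GA, against 4.15 and 8.30 in NH-JS2 and 3.10 and 3.70 with GA, again with every NH-JS2 library far below every NH-JS1 library. The edgeR differences were -6.32 ± 0.27 and -7.02 ± 0.28, with adjusted p-values of 5.12e-07 and 3.83e-07.

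TBIU062810 and TBIU062811, both matched to AT1G72860, showed the same order. The first had 266, 274, 291 and 264 scaled counts over the NH-JS1 libraries, and 4.15, 4.15, 2.07 and 2.77 over those of NH-JS2. In the second, the NH-JS1 libraries ran from 148 to 179 and the NH-JS2 libraries from 2.07 to 4.15. Neither overlapped, with edgeR differences of -5.98 ± 0.21 and -6.76 ± 0.22 for TBIU062810 and adjusted p-values of 2.28e-07 and 1.63e-07. These 2 unigenes are 2 of the 6 with that match, and the other 4 were not called.

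Among members that were higher in NH-JS2, TBIU018723, matched to AT1G63750, had 7.57 and 2.76 scaled counts in NH-JS1 and 2.02 and 6.01 with GA, against 215 and 231 in NH-JS2 and 302 and 245 with GA. The lines did not overlap, and the edgeR differences were 5.37 ± 0.33 and 6.04 ± 0.35, with adjusted p-values of 4.45e-06 and 2.91e-06. TBIU010268, matched to AT5G40910, had 1.68, 1.84, 3.03 and 3.0 in the NH-JS1 libraries and 176, 124, 136 and 129 in the NH-JS2 libraries. Its near-identical neighbour TBIU010267 had 164, 115, 126 and 115 in the latter. Both were thus near the floor in every NH-JS1 library, and the ratio of pooled scaled counts for TBIU010268 was 60.7 with a counting interval of 32.7 to 127.

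The CC class held smaller differences in the upward direction. TBIU052515, matched to CW9, had 188 and 180 scaled counts in NH-JS1 and 184 and 170 with GA, against 384 and 369 in NH-JS2 and 396 and 474 with GA. Every NH-JS2 library exceeded every NH-JS1 library, with edgeR differences of 1.03 ± 0.12 and 1.3 ± 0.12 and adjusted p-values of 0.000262 and 6.36e-05. TBIU031574, TBIU052517 and TBIU052519, matched to AT1G58848, AT1G58390 and AT1G58807, were higher by 1.06 to 1.37 without GA and 1.2 to 1.53 with GA on the log2 scale.

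Downward, the CC class was led by the match AT1G53350, of which all 6 unigenes were lower in both comparisons. Its TBIU048557 had 354 and 340 scaled counts in NH-JS1 and 339 and 349 with GA, against 19.7 and 18.0 in NH-JS2 and 11.4 and 10.2 with GA. No library of NH-JS2 came near those of NH-JS1, and the edgeR differences were -4.19 ± 0.15 and -4.99 ± 0.16, with adjusted p-values of 2.48e-07 and 1.56e-07. The unigenes TBIU048560, TBIU048561 and TBIU048562, were near-identical to it in counts, TBIU048558 differed by -3.32 and -3.93 on the log2 scale, and all 6 share the best hit Brara.H02771.1.p. TBIU000362, matched to AT1G15890, had 31.1, 30.4, 18.2 and 29.0 in the NH-JS1 libraries and 1.04, 2.77, 1.03 and 1.85 in the NH-JS2 libraries, so that it too was near the floor in the latter.

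**Figure D2:**
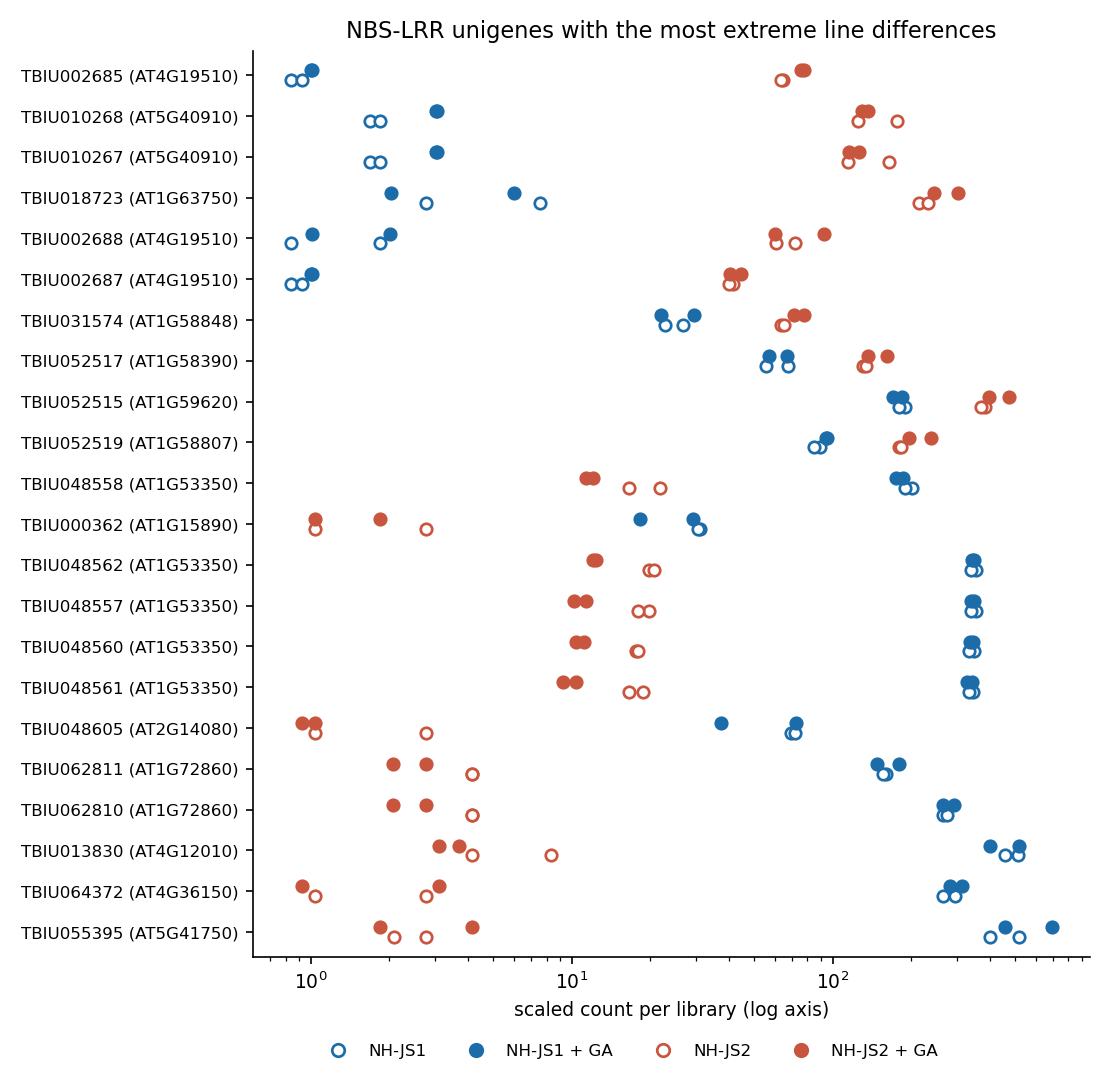
Scaled counts on a log axis in each of the 8 libraries for the members with the largest differences between the lines, 1 row per member and 1 point per library, with open points without GA and filled points with GA, and NH-JS1 in blue and NH-JS2 in red. In TBIU055395 the 4 NH-JS1 libraries lie between 401 and 691 and the 4 NH-JS2 libraries between 1.85 and 4.13, and the order is the reverse in TBIU018723.

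Counted apart were members near the floor in 1 line, with a count of at most 3 in its 4 libraries and of at least 20 in all 4 of the other line. In NH-JS1 9 members were near the floor, where the same rule took 0.732% of all unigenes, and in NH-JS2 11 were, where it took 0.964%. All 20 are of the TIR class, to which 601 of the 677 members belong. All were called in both line comparisons, which the rule itself favours. The 9 near the floor in NH-JS1 have 3 Arabidopsis matches and 3 best hits. Of the 9, 5 match AT4G19510 and share the hit Brara.A01045.1.p, and the raw counts of TBIU002685 were 1 in all 4 libraries of NH-JS1 and 62, 46, 73 and 84 over those of NH-JS2. It was therefore at least 24.8-fold higher in NH-JS2, taking 3 counts per library as the floor. For TBIU002687, TBIU002686 and TBIU057013 of the same hit the bounds were at least 14.7-fold, 11.9-fold and 8.78-fold higher. TBIU057192 and TBIU057193, matched to AT1G63740, completed the 9 with TBIU010267 and TBIU010268, and had counts of 1 to 3 in NH-JS1 and of 22 to 60 in NH-JS2.

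The 11 members near the floor in NH-JS2 have 10 matches and 10 best hits. TBIU064372, matched to AT4G36150, was the most abundant, with raw counts of 314, 319, 310 and 281 over the libraries of NH-JS1 and of 1, 2, 3 and 1 over those of NH-JS2. The ratio of its pooled scaled counts was 153, with a counting interval of 74.2 to 382. TBIU029018, matched to AT4G19510, and TBIU029019, matched to DSC1, stood at 1 in all 4 NH-JS2 libraries and were at least 7.81-fold and 9.40-fold lower there. The other 8, TBIU042179, TBIU042188, TBIU042199, TBIU048605, TBIU048606, TBIU054442, TBIU064110 and TBIU069342, had counts of 21 to 89 in NH-JS1 and of 1 to 3 in NH-JS2. Best hits with members near the floor in opposite lines numbered 0, which was not counted over all unigenes. Just outside the rule were 5 more members for NH-JS1 and 16 for NH-JS2. TBIU055395, with a highest count of 4 in NH-JS2, TBIU062810 with the same highest count, and TBIU002689, with a lowest count of 17 in NH-JS2, are among these.

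**Figure D3:**
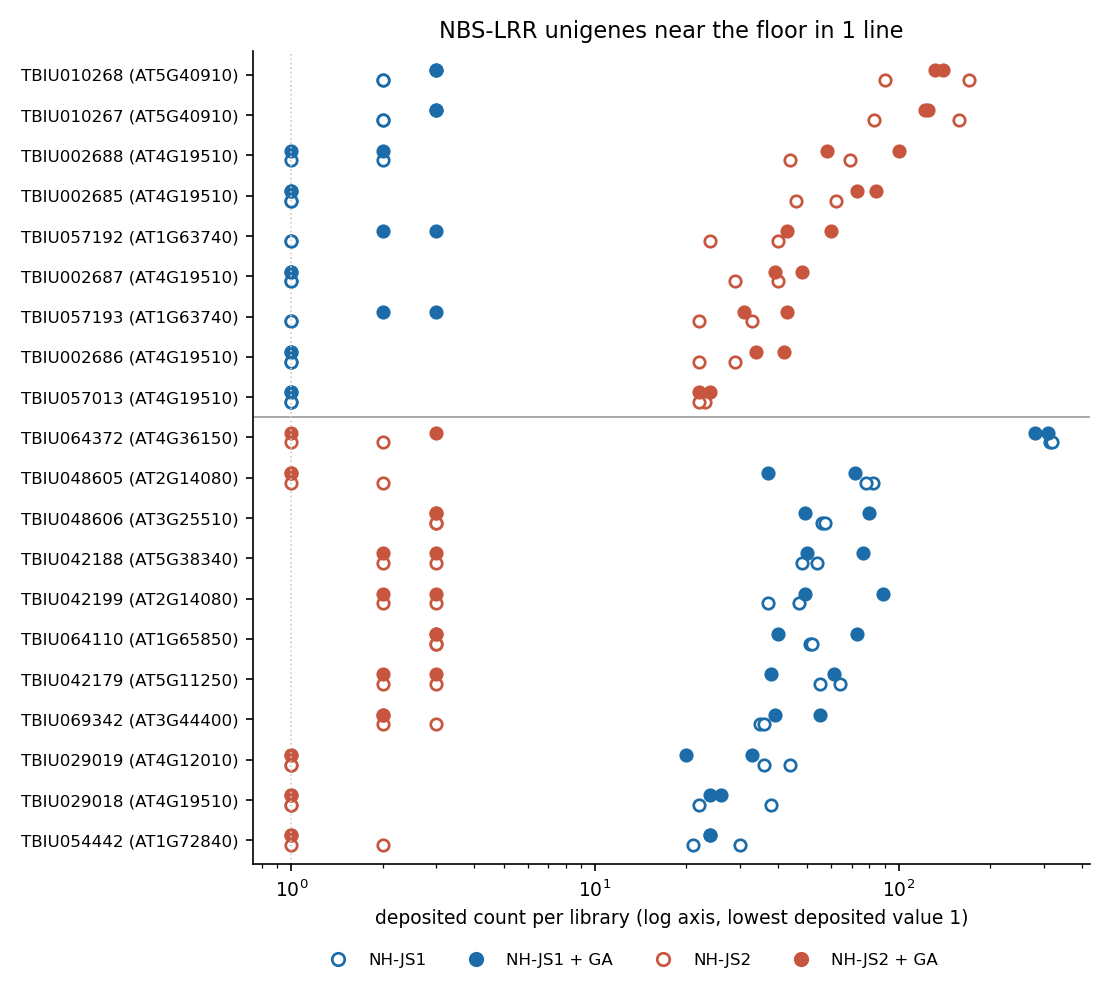
Deposited counts on a log axis in each of the 8 libraries for the 20 members near the floor in 1 line, 1 row per member and 1 point per library, with a dotted line at the lowest deposited value of 1. The 9 members near the floor in NH-JS1 and the 11 near it in NH-JS2 have no count above 3 and below 20, because the rule that chose them sets this gap.

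The calls were then grouped by Arabidopsis match. Of the 71 matches with a tested member, 40 had a member called in a line comparison, and 8 had members called in both directions without GA. Of the 118 best hits with at least 2 tested members, 0 had members called in both directions. Only hits with at least 2 called members could show this, and members of a hit may share reads. Such numbers were not counted over all unigenes, so neither the 40 matches nor this 0 sets the members apart. The 92 members that were lower in both comparisons came from 24 matches and 39 best hits, and 9 best hits with at least 4 each gave 45 of the 92.

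AT3G44400, a TIR match, had 12 of 16 tested unigenes lower in both comparisons and 4 not called. Over all 19 of its unigenes, the summed scaled counts were 1876 and 1882 in NH-JS1 and 2001 and 2438 with GA, against 375 and 418 in NH-JS2 and 491 and 403 with GA. The lines lay far apart, and summing the counts over the match before the edgeR test gave log2 differences of -2.28 ± 0.14 and -2.33 ± 0.14, with adjusted p-values of 9.67e-06 and 7.89e-06. AT5G38340 had 11 of 23 lower in both, with sums of 3462, 3441, 3828 and 4672 in the NH-JS1 libraries and 973, 1002, 1060 and 1062 in the NH-JS2 libraries. Its TBIU042185, chosen after its values were seen, lay between 913 and 1035 scaled counts in NH-JS1 and between 70.6 and 111 in NH-JS2.

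AT1G65850 had 9 of 13 unigenes lower in both comparisons, AT3G25510 9 of 23, AT2G14080 7 of 29 and AT5G41550 6 of 22. For AT5G41550, 11 were lower without GA. The summed levels of these 4 matches did not overlap between the lines. In AT3G25510, TBIU062717 stood out, also chosen after its values were seen, with scaled counts from 1345 to 1894 in the 4 NH-JS1 libraries and from 72.4 to 104 in the 4 of NH-JS2. Its TBIU052961 went the other way, from 0.921 to 2.02 in NH-JS1 to between 10.4 and 15.5 in NH-JS2, and was called higher in both.

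Upward matches were fewer. AT4G19510 had 7 of 8 unigenes higher and 1 lower, and its summed scaled counts were 28 to 38 in the NH-JS1 libraries and 274 to 329 in those of NH-JS2. AT5G40910 had 4 of 6 tested unigenes higher in both, which share 1 best hit. AT4G36140 had 4 of 8 higher, by 1.32 to 1.85 without GA and 1.27 to 2.02 with GA on the log2 scale, while its abundant unigenes were not called. Of the 4 unigenes matched to AT2G16870, 3 were higher, and TBIU018724, chosen after its values were seen, had 25.2 and 16.6 scaled counts in NH-JS1 and 14.1 and 17 with GA, against 349 and 402 in NH-JS2 and 550 and 444 with GA. Every NH-JS2 library was thus far above those of NH-JS1. Summed levels overlapped between the lines for the large matches AT5G18350 and DSC2 and the smaller AT5G45050. Of their tested unigenes, 2 of 47, 1 of 39 and 0 of 8 were called without GA.

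**Figure D4:**
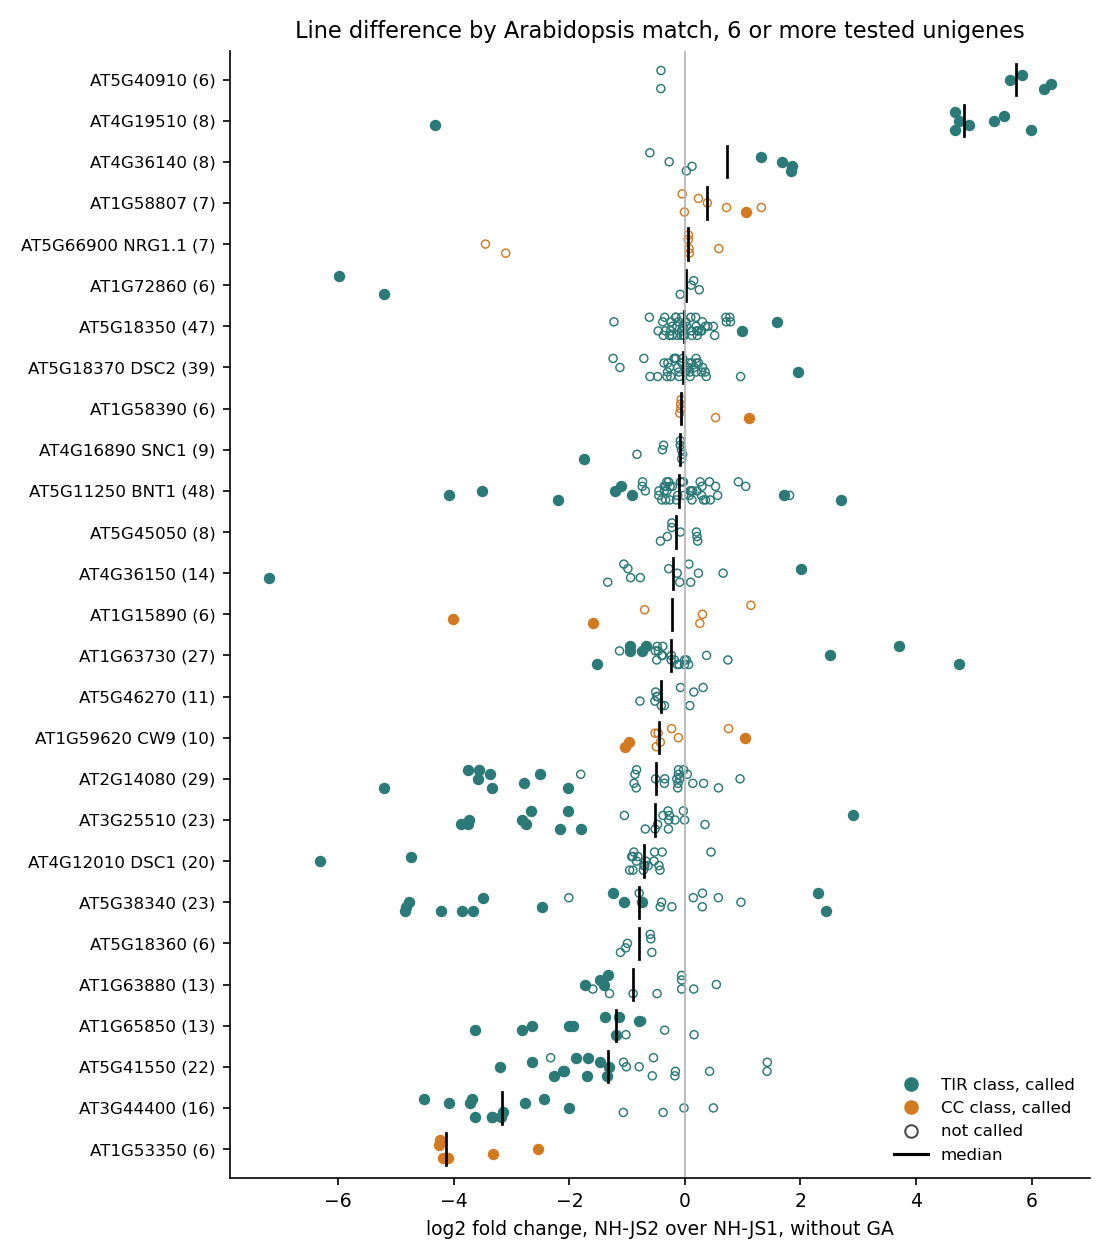
Log2 difference between the lines without GA (NH-JS2 minus NH-JS1, edgeR) for the 438 tested unigenes of the 27 Arabidopsis matches with 6 or more of them, 1 row per match, 1 point per unigene, with called unigenes filled and a bar at the median. In AT3G44400 12 of 16 points lie at the lower side and are filled, whereas in AT4G19510 7 of 8 lie at the upper side.

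Receptors with a known name in Arabidopsis were described by a fixed list of 34 names, of which 15 had a member. SNC1, whose overactive allele gives constant defence in Arabidopsis, had 9 tested unigenes, and TBIU000283 was the 1 that was called. It had 205 and 172 scaled counts in NH-JS1 and 169 and 138 with GA, against 62.3 and 49.8 in NH-JS2 and 83.7 and 73.9 with GA. The lines did not overlap, and edgeR gave -1.74 and -0.96 with adjusted p-values of 0.000137 and 0.00351. WRR4, which gives resistance to white rust, has 1 unigene, TBIU022224, with 22.7 and 25.8, 17.2 and 11, 56.0 and 51.2, and 34.1 and 44.3 in the order of the groups above. It was higher in all NH-JS2 libraries, by 1.15 ± 0.25 and 1.47 ± 0.28, with adjusted p-values of 0.00762 and 0.00385 by edgeR. Its call without GA was lost in the fits where all unigenes were summed by match or by best hit, with adjusted p-values of 0.0113 and 0.0101 by edgeR. No TIR domain, NB-ARC domain or leucine-rich repeat was annotated in TBIU022224, so it stands for WRR4 by its match alone.

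CW9, a CC receptor, had 14 unigenes, and 2 were lower and 1 higher in both comparisons. The near-identical TBIU011732 and TBIU011733 were lower, the first with 1091, 1086, 1031 and 1109 scaled counts in the NH-JS1 libraries and 549, 516, 640 and 677 in the NH-JS2 libraries, which do not overlap. BNT1, a TIR receptor linked to stress hormones in Arabidopsis, had 58 unigenes, of which 2 of the 48 tested were higher and 6 lower without GA. RPP1, which in Arabidopsis recognises a downy mildew effector, had 1 of 2 tested unigenes higher without GA, TBIU052962, at a level of 0.921 to 14.8. The 3 near-identical unigenes of SOC3 had sums of 80.8 to 94.1 in NH-JS1 and of 145 to 235 in NH-JS2. Their log2 differences were 1.02 to 1.05 without GA, where the adjusted p-values by edgeR ran from 0.022 to 0.029 and did not pass.

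Helper and paired receptors had no call between the lines. The 7 unigenes of NRG1.1 summed to between 948 and 1121 in NH-JS1 and between 930 and 1054 in NH-JS2, which overlap, and 0 were called. ADR1 lay at 18.5 to 36.8 and 8.30 to 33.3. RPS4, which acts in a pair with RRS1, had sums of 548 to 579 and 543 to 617, and RRS1 itself 28.6 to 42.4 and 24.0 to 30.1, with 0 called in either. CSA1, which in Arabidopsis pairs with CHS3, had 0 of 3 called. A p that misses the threshold does not show that the lines were equal in these receptors.

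The second question was whether GA changed the receptors within a line. By edgeR 0 members were called in NH-JS1, 0 in NH-JS2 and 0 for the difference of the GA effects, where the rule called 0.0258%, 0.0364% and 0.047% of all unigenes. DESeq2 also called 0 in each. At an unadjusted p under 0.05, 33 members were higher and 6 lower with GA in NH-JS1, which is 6.06% and 1.1% of the 545, against 3.22% and 4.75% of all unigenes. In NH-JS2, 33 were higher and 4 lower, or 6.06% and 0.734%, against 3.74% and 5.03%. The 33 of NH-JS1 and the 33 of NH-JS2 had 0 members in common. The overlap of such lists over all unigenes was not counted, so this 0 does not show that the lines differ in their response. For the difference of the GA effects, 20 were higher and 12 lower at that p, where 2.16% and 2.06% of all unigenes were. The lowest adjusted p was 0.161 in NH-JS1, 0.434 in NH-JS2 and 0.777 for the difference.

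The members leaned upward with GA in both lines, by small amounts. The median log2 change was 0.08 in NH-JS1 and 0.13 in NH-JS2, where over all unigenes it was 0.00 and -0.01. In the TIR class, 306 of 480 members were above 0 in NH-JS1 and 322 in NH-JS2, which is 63.8% and 67.1%, against 50.3% and 49.1% of all unigenes. In the CC class these were 38 and 46 of 65. Both libraries with GA lay above both without for 34.9% of the members in NH-JS1 and 33.4% in NH-JS2, against 21.2% and 18.4% of all unigenes, and below both for 13.4% and 11.2%, against 22.1% and 19.7%. The summed level with GA was 1.05 times that without in NH-JS1 and 1.11 times in NH-JS2. With 2 libraries per group and members that share reads, these shares carry no test.

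**Figure D5:**
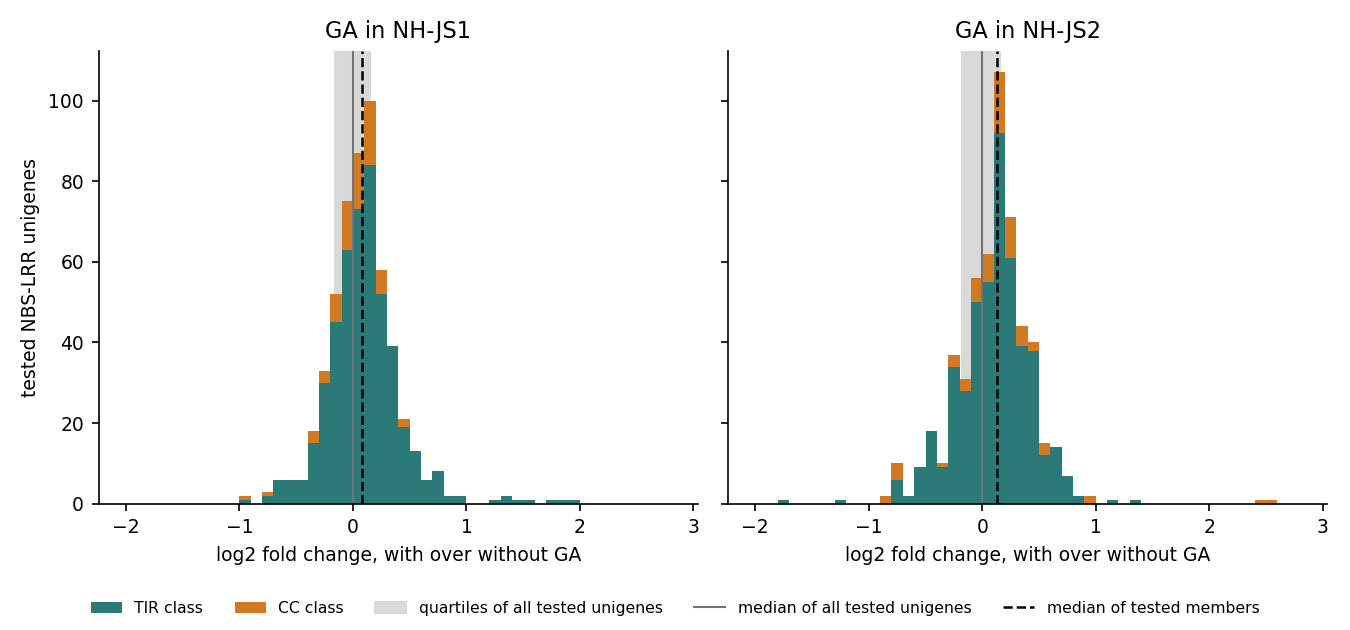
Number of tested members in each interval of the log2 change with GA (edgeR, with GA over without), in NH-JS1 at the left and NH-JS2 at the right, with the TIR and CC classes stacked. The dashed line is the median of the members, at 0.08 and 0.13, and the grey band and line are the quartiles and median of all unigenes tested.

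The lowest p-value for GA belonged to TBIU021669, matched to AT5G18350, in NH-JS1. Its scaled counts were 12.6 and 12 in NH-JS1 and 28.3 and 39.0 with GA, against 36.3 and 38.7 in NH-JS2 and 35.1 and 39.7 with GA. Only NH-JS1 without GA was low, and the log2 change with GA there was 1.44 ± 0.26, with an adjusted p of 0.161 by edgeR. TBIU038251 and TBIU038252, matched to AT5G38340 with 1 best hit, had the same order, with 4.21 and 6.45, 15.2 and 21.0, 25.9 and 27.7, and 23.8 and 30.5 for the first. In NH-JS2 the lowest p was that of TBIU000004, matched to AT2G14080, with 6.23 and 8.30 without GA and 14.5 and 21.2 with it, against 27.6 to 33.0 in all NH-JS1 libraries. Its change of 1.32 ± 0.34 had an adjusted p of 0.434 by edgeR. TBIU014420 and TBIU014421, near-identical and matched to AT5G40910, came next, at 172 and 176 against 223 and 249 for the first.

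Of the 33 members of NH-JS1, all are of the TIR class, to which 480 of the 545 tested members belong. Among them 8 match AT5G38340 and 6 match BNT1, which have 23 and 48 tested. Of the 33 of NH-JS2, 28 are of the TIR class and 5 of the CC class. From AT3G25510 and AT5G41550, with 23 and 22 tested, come 5 each. Downward in NH-JS2 the lowest p-values were those of TBIU048557 and TBIU048561 of AT1G53350, at 18.7 and 16.6 without GA and 10.3 and 9.24 with GA for the latter, and of TBIU011103. None passed after adjustment.

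Libraries of the same line differed in some members, which were picked out here after their values were seen. At least 3-fold apart between the 2 libraries of a group, with the higher one at 20 scaled counts or more, were 0 of 413 members in NH-JS1 and 1 of 425 with GA, but 8 of 378 members in NH-JS2 and 7 of 388 with GA. Over all unigenes this gap was found for 0.441%, 0.720%, 1.29% and 0.960% in the same order. Among the members with such a gap were 4 unigenes matched to DSC1 and 4 matched to AT2G14080. For all unigenes matched to DSC1, the summed scaled counts were 3588 and 3288 in NH-JS1 and 3444 and 3079 with GA, against 1124 and 2537 in NH-JS2 and 3046 and 1220 with GA. Replicate 1 of NH-JS2 and replicate 2 of NH-JS2_GA were lowest. The other libraries of that line, at 2537 and 3046, were higher than these but still below every NH-JS1 library.

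Of the 23 DSC1 unigenes, 17 had this order in NH-JS2, where 14.3% of all unigenes tested had it. The 17 come from 3 best hits, but most share Brara.I02283.1.p, so they are not independent units and may share reads. Over these 17, selected for the order, the mean of the high pair of libraries was 1.57 to 5.53 times that of the low pair. The median was 2.49. In the high pair these unigenes were at 0.975 of their NH-JS1 level in the median, and in the low pair at 0.423. TBIU014010 had 249, 256, 198 and 247 scaled counts over the 4 libraries of NH-JS1, against 47.7 and 228 in NH-JS2 and 273 and 46.2 with GA. TBIU013830 and TBIU029019, the DSC1 unigenes called between the lines, were low in all 4 libraries of that line instead. Whether the pattern was one of plants, pools or libraries was not tested.

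Other members split differently. TBIU004026 to TBIU004029, matched to AT2G14080, were near the floor in replicate 1 of NH-JS2 alone, with 82.4, 85.7, 83.8 and 79.1 in the NH-JS1 libraries, against 2.08 and 124 in NH-JS2 and 43.4 and 103 with GA, for TBIU004026. TBIU051183, matched to the helper NRG1.1, had 42.9, 36.8, 41.4 and 38.0 in the NH-JS1 libraries, against 5.19 and 1.38 in NH-JS2 and 1.03 and 41.6 with GA. Only replicate 2 of NH-JS2_GA reached the level of NH-JS1, and TBIU027642 of the same best hit had the same order, with 16.6 in that library and 1.04 to 3.10 in the other NH-JS2 libraries. These unigenes were not called between the lines, and the other 5 of NRG1.1 did not share the order.

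Genes that act with or after the receptors were taken from a list of 35. They had 175 unigenes, of which 165 were tested. Without GA, 9 were higher and 20 lower in NH-JS2, and with GA 11 were higher and 12 lower, which is 17.6% and 13.9%, against 18.4% and 17.6% of all unigenes. For the GA effect, 0 were called in either line. Without replicate 1 of NH-JS1 the 9 became 2, and without replicate 2 of NH-JS1 the 20 became 10. The 11 became 6 without replicate 1 of NH-JS1_GA and 5 without either library of NH-JS2_GA, and the 12 became 7 without replicate 2 of NH-JS2_GA.

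ICS1, the isochorismate synthase that makes the precursor of salicylic acid, had 7 of 28 unigenes lower in both comparisons. TBIU038512 had 308 and 327 scaled counts in NH-JS1 and 640 and 310 with GA, against 33.2 and 22.1 in NH-JS2 and 32.0 and 26.8 with GA, and TBIU051493 113, 127, 104 and 90.11 against 2.08, 2.77, 4.13 and 3.70. The other 21 unigenes were not called, and the sum over all 28 was 6078 to 7266 in NH-JS1 and 4979 to 5380 in NH-JS2. PBS3, which conjugates the precursor to an amino acid, had 4 unigenes lower without GA, with log2 differences of -0.65 to -0.73, and 0 lower with GA. Its TBIU017739 was higher in both. SARD1 and CBP60g, transcription factors that activate ICS1 in Arabidopsis, had 2 of 6 and 1 of 4 unigenes lower without GA, and 0 and 1 with GA. EDS5, the transporter of the precursor, had 0 of 3 called in either comparison.

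Among the proteins that receptors use directly, EDS1, the partner of PAD4 and SAG101 in TIR signalling, had 1 of 3 unigenes lower without GA. TBIU028200 had 125 and 111 in NH-JS1 and 104 and 91.1 with GA, against 64.4 and 70.5 in NH-JS2 and 68.2 and 72.1 with GA, so that the lines did not overlap. The sums over the 3 unigenes were 1202 to 1487 in NH-JS1 and 841 to 973 in NH-JS2. HSP90.1, a chaperone of the receptors, had 4 of 6 unigenes higher in both comparisons, with 32.0, 52.5, 45.5 and 81.1 against 140, 137, 185 and 194 for TBIU061861. The sums over all 6 overlapped, at 581 to 1470 in NH-JS1 and 881 to 1420 in NH-JS2. RKS1, a pseudokinase that links the receptor ZAR1 to its guarded kinase in Arabidopsis, had 1 of 6, TBIU053451, at a count of 1 in every NH-JS1 library and at 26.9 to 43.6 scaled counts in NH-JS2.

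MEKK1, the first kinase of a cascade that receptors guard, had 1 of 5 unigenes higher, TBIU015851, from 77.4 to 100 in NH-JS1 against 272 to 353 in NH-JS2. For MPK4, the last kinase of that cascade, 1 of 6 was lower in both and 2 were higher with GA alone. For the kinase PBL2, 2 of 9 were higher in both and 2 lower without GA. RIN4, which several CC receptors guard, had 1 of 2 lower without GA, CPR5 had 1 of 3 lower without and 2 with GA, and SAG101 had 1 of 4 lower with GA. Unigenes of PAD4, NDR1, RAR1, SGT1A, SGT1B and NPR1 were not called. A call in only 1 of the line comparisons is not a test that the lines differ by treatment.

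Beside the members, unigenes described as NB-ARC proteins but not as NBS-LRR had 3 of 46 higher and 3 lower without GA. Of the cysteine-rich receptor-like kinases, a family of cell surface receptors, 57 of 278 were higher and 65 lower, and of the WRKY transcription factors 7 of 119 were higher and 10 lower. That is 13%, 43.9% and 14.3% called, against 18.4% of all unigenes, with median log2 differences of 0.05, -0.22 and 0.02. With GA the counts were 3 higher and 1 lower, 60 and 66, and 6 and 8, or 8.70%, 45.3% and 11.8% against 17.6%, with medians of 0.20, 0.05 and -0.07. These values stand side by side with no test between families.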

How the data were processed

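RNA of pooled whole shoots was sequenced in 8 libraries, 2 for each of the 4 groups given by the labels. The authors trimmed reads with SolexaQA, mapped them with Bowtie2 2.1.0 to assembled unigenes allowing 2 mismatches, and deposited a count per unigene and library, whose lowest value is 1. TopHat is also named in the submitters' processing notes, with no version. The sources used here do not give strandedness or how reads shared between similar unigenes were counted. The counts normalized by the authors are a score rounded to whole numbers, and served only as an alternative for summed levels. Protein identities are the deposited percent of the best hit. The authors' log2 fold changes and their tests were not used.

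Counts were fitted with edgeR 4.0.16 in R 4.3.3 (filterByExpr, TMM, quasi-likelihood F-test on 4 group means), with Benjamini-Hochberg adjustment over the 65934 unigenes tested. The SE given with a log2 difference is not an edgeR output. It was derived as the size of the difference divided by the square root of its F statistic. Summaries used Python 3.11.15, and the fits were tested on simulated data. Library totals from 23757588 to 34165272 were reached, so counting error weighs most in unigenes with few counts. Intervals and floors cover counting error only.

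Members are all unigenes whose Arabidopsis description contains NBS-LRR. Named unigenes are, per class, up to 6 with the highest and 6 with the lowest mean line difference among those called in both comparisons without overlap, the 3 with the lowest p per direction for GA, the 8 most abundant, members near the floor, receptors of known name, called signalling partners, and ranges for matches with 5 or more unigenes. Any other unigene was picked with its values in view. The members, lists and tests were chosen with earlier results of these data known. No sequence of the unigenes was used here. One receptor of the list is not reported here.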

Additional observations from a re-analysis of the deposited data

How the results depend on the processing

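No direction reversed under any alternative that was run, and of the values of single named unigenes under all alternatives 3964 stayed on their side of the threshold in the same direction, while 27 lost the call, 8 of these without replicate 1 of NH-JS1. DESeq2 called 35 members higher and 89 lower without GA and 32 higher and 82 lower with GA, and 123 of its 124 and 114 of its 114 calls were shared with edgeR. Requiring at least 50 counts in 2 libraries left 23 members higher without GA and 25 with GA, since fewer members were tested. Requiring a mean scaled count of 500 in a group left 1 higher and 4 lower without GA, and 3 higher and 7 lower with GA. Summing counts over each Arabidopsis match gave 6 matches higher and 14 lower without GA, and 9 higher and 12 lower with GA. Summing over each best hit, chosen after seeing the data, gave 15 hits higher and 37 lower without GA, and 18 higher and 31 lower with GA. Also chosen after seeing the data, 1 subtracted from every count gave 42 higher and 105 lower, and 44 higher and 99 lower, and 1 member per set of near-identical counts gave 38 higher and 92 lower, and 41 higher and 92 lower. Leaving out each library in turn gave 31 to 42 members higher and 84 to 106 lower without GA, 36 to 46 higher and 75 to 106 lower with GA, and 0 to 0 called for each GA effect. Signalling partners then ranged over 2 to 9 higher and 10 to 19 lower without GA, and over 5 to 12 higher and 7 to 12 lower with GA. Members near the floor ranged over 9 to 10 for NH-JS1 and 11 to 13 for NH-JS2. With a floor of at most 1 count they were 4 and 2, and with a floor of at most 5 counts and presence at 10 or more they were 14 and 28. Without the 5 most abundant members the summed level of NH-JS2 was 0.774 of that of NH-JS1 without GA and 0.811 with GA.

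The labels give the groups the same replicate numbers, and deviations of same-numbered libraries correlated by only -0.0735 to 0.12 over the group pairs. The main fit did not pair samples by number. Whether same-numbered libraries shared a sowing or harvest is not given, and a low correlation cannot exclude it. With the replicate block, 39 members were higher and 106 lower without GA, 47 were higher and 97 lower with GA, and 0 were called for GA. A fit of only the groups compared gives no difference of the GA effects.

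With 2 libraries per group, the absence of calls for GA is not evidence of equal levels. DESeq2 gave no adjusted p for 80 members in the comparison of GA in NH-JS2. Members below about 10 counts were mostly not tested, and copies with shared reads are not independent units.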
